A study of Gallus gallus with 2 samples.

Results

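The genes described here are 10 that mark B cells or encode immunoglobulin chains: IGLL1, JCHAIN, CD79B, PAX5, POU2AF1, TNFRSF13B, IKZF3, BTK, CD72 and IRF4. They were chosen by name, as genes of the cells that birds lose when the bursa of Fabricius is removed, with earlier results of these data known; the rule itself uses no measured value. All probe sets annotated with 1 of these symbols were taken, 24 in all, out of 27166 chicken probe sets annotated with 1 gene symbol. At the level of genes they were 10 of 13008. The study compared control laying hens with hens that had undergone surgical bursectomy (Bx) on day 17 to 18 of incubation. The Bx hens are described by the series as IgY-deficient. In both groups the germinal disc region, the spot on the yolk with the nucleus of the oocyte, was taken at 25 weeks of age from yellow follicles ranked F5 to F7. Breed is not given in the sources used here, nor is whether the control hens had a sham operation. RNA of 9 discs from 3 birds was pooled in each group and hybridised to 1 Affymetrix Chicken Genome Array, so there were 2 arrays, no replicate, and no test between the groups was possible.

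Birds make B cells in the bursa of Fabricius, a pouch of the hind gut where precursors that have rearranged their immunoglobulin genes diversify them by gene conversion before they leave for the blood and lymphoid tissues. Mature B cells carry immunoglobulin on the surface together with the signalling chains CD79A and CD79B, and plasma cells secrete it. IgY, the avian counterpart of mammalian IgG, passes from the hen's blood into the yolk. Immunoglobulin mRNA is made by B and plasma cells and does not travel with the IgY. In a bulk sample fewer such cells and less RNA per cell cannot be told apart.

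Most probe sets for B cell genes were at background in control and Bx discs alike. Each signal was set against a floor, the 95th percentile, on the same array, of the 746 probe sets whose identifiers begin with neither Gga nor AFFX. The floor was a signal of 42.6 for the control and 36.4 for the Bx array. Of the 24 member probe sets, 9 (37.5%) exceeded the control floor, against 70.5% of all named chicken probe sets. The Bx floor was exceeded by 8 (33.3%), against 73.0% of all. Only 6 of the 24 were over both floors (25%), against 66.5% of all named chicken probe sets. A further 13 (54.2%) were under both, against 23.1% of all. IGLL1 alone gave 6 of these 13. The counts differ by gene, each read on its brightest probe set. By gene, 0 of the 10 were under both floors, against 13.1% of all named genes. Over the control floor were 9, against 81.5%, and over the Bx floor 7, against 83.6%. Over both were 6, against 78.2%. The median signal over the member probe sets was 28.6 for control discs and 31.0 for Bx discs, both under the floors, and over all named chicken probe sets it was 122 and 126.

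**Figure D1:**
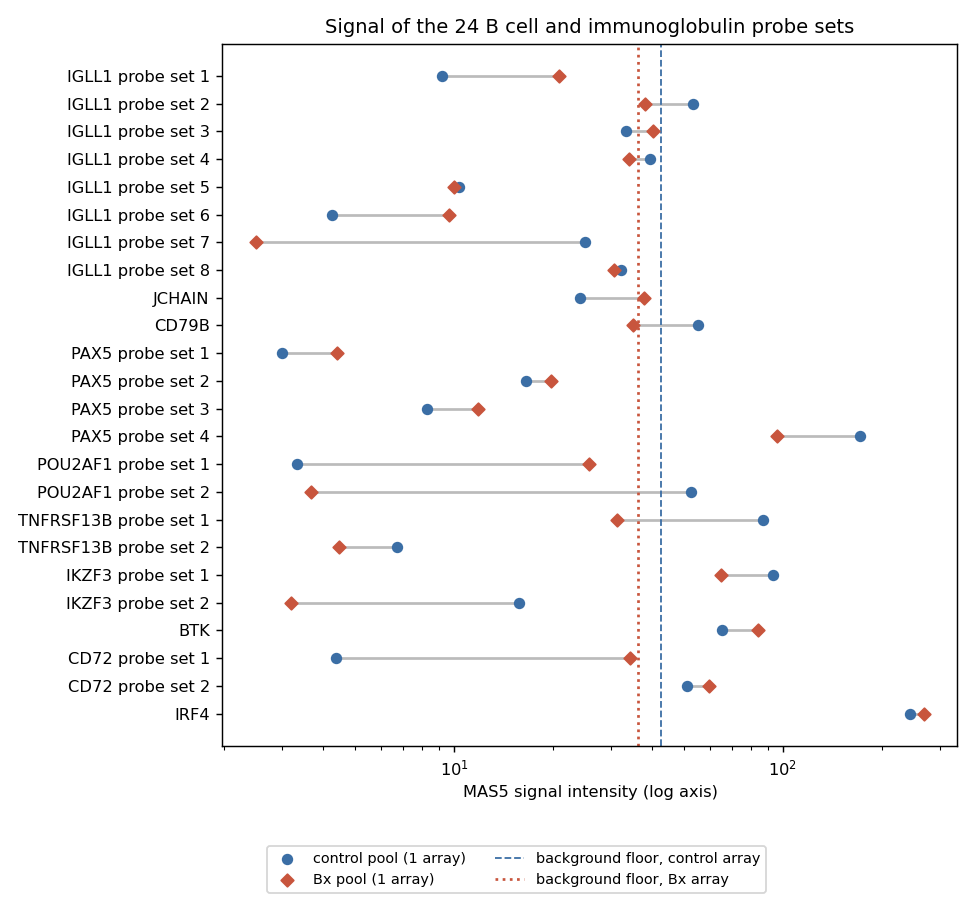
MAS5 signal (log axis) of each of the 24 member probe sets in control discs (blue circle) and Bx discs (red diamond), 1 array each, with the floor of each array as a vertical line; probe sets of one gene are numbered in the order of their identifiers. IRF4 and PAX5 probe set 4 lie clear of both floors on both arrays, and for 13 probe sets each signal lies left of the floor of its own array.

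**Figure D2:**
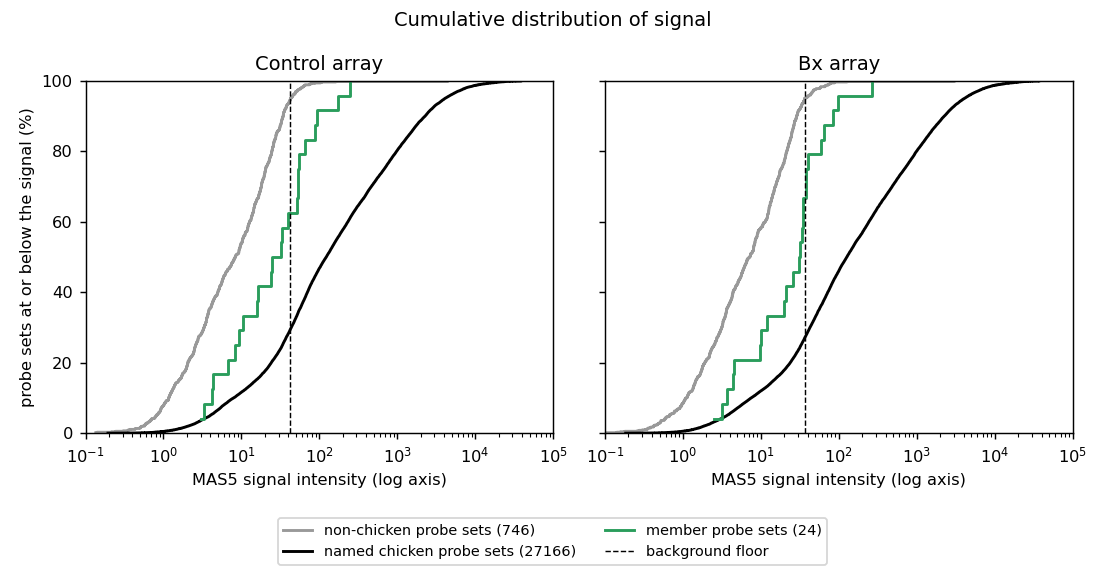
Cumulative share of probe sets (%) at or below a given signal (log axis), 1 panel per array, for the 746 non-chicken, the 27166 named chicken and the 24 member probe sets. Over the middle of its range the member curve lies between the non-chicken and the chicken curves on both arrays, but not at its ends.

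The light chain gene and the joining chain gene gave no signal clearly above background in either pool. Immunoglobulin heavy chains were not analysed here. IGLL1, which the reference gene table lists with the synonym IgL, is the gene name under which this array carries the immunoglobulin lambda light chain, the light chain of chicken antibodies. It had 8 probe sets. Probe set 2, numbered as in the plot of the 24 probe sets, was over both floors, with a signal of 53.4 in control discs and 38.0 after bursectomy (1.40-fold lower in Bx discs, log2 ratio -0.49). These signals were 1.25 and 1.04 times the floors. Probe set 3 had 33.4 in the control, under the floor, and 40.4 in Bx discs, just above it. The other 6 were under both floors, between 4.25 and 39.6 in the control and between 2.49 and 34.1 in Bx discs. The highest IGLL1 signal was thus 1.25 times its floor. Of the 8 probe sets, 4, among them probe set 2, carry the suffix _x_at, which marks probes that can match other transcripts. The chicken light chain locus holds many related pseudogenes. Whether other transcripts added to these signals was not tested. JCHAIN, the joining chain that links the subunits of polymeric IgM and IgA, had 24.1 in the control, under the floor, and 37.9 in Bx discs, which is 1.04 times that array's floor. No fold is given for it, since the Bx signal was lower than the floor of the control array.

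Of the surface receptors of B cells, CD79B and CD72 were close to the floor, and TNFRSF13B was 2.05 times the floor in the control on 1 of its probe sets. CD79B, the signalling chain of the B cell receptor, had 55.3 in control discs and 35.1 after bursectomy. It was above the floor in the control alone, and its signal was at least 1.52-fold lower in Bx discs. TNFRSF13B, the receptor TACI for the B cell survival factor BAFF, had 87.2 in control discs and 31.3 after bursectomy on probe set 1, at least 2.40-fold lower. Its other probe set, designed on the same cluster in the opposite orientation (S1 in place of A1), had 6.70 and 4.45, under both floors. Which of the orientations reads the TNFRSF13B transcript was not tested. CD72, an inhibitory co-receptor of B cells, had 51.1 in control discs and 59.5 after bursectomy on one probe set (1.16-fold higher, log2 ratio 0.22). The other CD72 probe set had 4.37 and 34.3, under both floors. Of these receptors, CD79B and TNFRSF13B thus had the lower signal in Bx discs and CD72 the higher.

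BTK, the tyrosine kinase that passes on the B cell receptor signal and is also made by myeloid cells, had 65.5 in control discs and 83.9 after bursectomy. The signal was 1.28-fold higher in Bx discs (log2 ratio 0.36).

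Among the transcription factors, IRF4 and PAX5 stood furthest above the floor. IRF4, needed for plasma cells but used by T cells and macrophages too, had 244 in control discs and 269 after bursectomy on its 1 probe set, 5.74 and 7.39 times the floors (1.10-fold higher, log2 ratio 0.14). PAX5, the factor that commits cells to the B lineage, had 172 in control discs and 96.3 after bursectomy on probe set 4 (1.79-fold lower, log2 ratio -0.84). The other 3 PAX5 probe sets were under both floors, between 3.00 and 16.5 in the control and between 4.41 and 19.7 in Bx discs. The PAX5 signal therefore rested on 1 of 4 probe sets. IKZF3 (Aiolos), a zinc finger factor of mature lymphocytes, had 93.1 in control discs and 64.9 after bursectomy on one probe set (1.43-fold lower, log2 ratio -0.52). Its other probe set had 15.8 and 3.20, under both floors. POU2AF1 (OBF-1), the co-activator of octamer factors at immunoglobulin promoters, had 52.7 in control discs and 3.68 after bursectomy on one probe set, at least 1.45-fold lower against the Bx floor. On its other probe set it had 3.34 in control discs and 25.8 after bursectomy, under both floors. Values under a floor have no order, so nothing is read from that second pair.

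Set side by side, 3 of the 6 member probe sets over both floors had the lower signal in Bx discs (PAX5, IKZF3 and IGLL1) and 3 the higher (BTK, CD72 and IRF4). Their median log2 ratio was -0.17, and over the 18073 named probe sets over both floors it was 0.02. None of the 6 was 2-fold higher or lower, where 0.874% of all such probe sets were higher by that factor and 0.653% lower. At 1.5-fold 1 was lower, PAX5, and 0 were higher, against 4.58% lower and 5.18% higher over all. The SD of the log2 ratio over probe sets of like brightness, which includes any real difference, was 0.50 in the dimmest of 4 equal brightness groups, with IKZF3, IGLL1, BTK and CD72, and 0.38 in the next, with PAX5 and IRF4. PAX5 lay at 2.20 of these SDs and IKZF3 at 1.03, and the other 4 lay within 1 SD. In the brightness group of PAX5, 4.03% of probe sets were at least 1.5-fold lower in Bx discs.

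**Figure D3:**
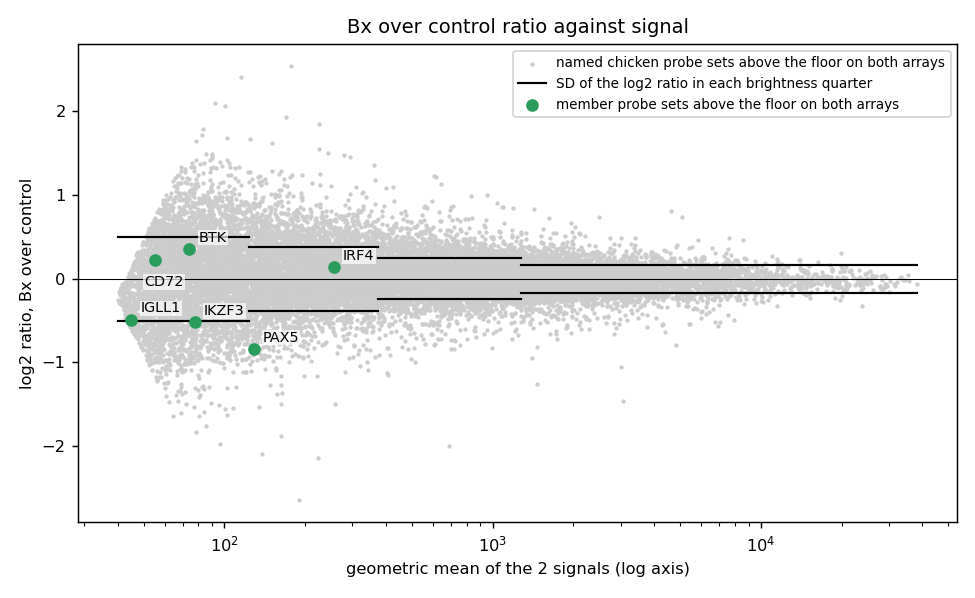
Log2 ratio of Bx over control against the geometric mean of both signals (log axis) for the 18073 named probe sets over both floors (grey), with the 6 member probe sets in green and bars at plus and minus 1 SD of the ratio in each of 4 brightness groups. PAX5 lies below the bar of its group, and IRF4, BTK and CD72 lie inside theirs.

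With bounds counted, 1 of the 9 member probe sets above the floor in the control was at least 2-fold lower in Bx discs, TNFRSF13B, against 1.46% of all probe sets above that floor. None of the 8 above the floor in Bx discs was at least 2-fold higher, against 1.47%. At 1.5-fold the lower ones were 3 of 9 (TNFRSF13B, PAX5 and CD79B), against 6.95%, and the higher ones 0 of 8, against 6.68%. The shares over all probe sets include bright ones, which seldom cross a fold threshold: 0.553% of the brightest of the 4 groups were past 1.5-fold either way, against 24.2% of the dimmest. Among the 4691 named probe sets with a control signal between the floor and 100, a range set after the values were seen, 22.2% were under the floor in Bx discs, 16.8% were at least 1.5-fold lower and 3.54% were at least 2-fold lower. In that range 3 of the 7 member probe sets were under the floor in Bx discs (CD79B, POU2AF1 and TNFRSF13B), 2 were at least 1.5-fold lower and 1 was at least 2-fold lower. In the mirrored range on the Bx array, 2 of the 7 member probe sets were under the control floor (JCHAIN and one of IGLL1), against 32.8% of 5181. There 0 of the 7 were at least 1.5-fold higher in Bx discs, against 10.4%, and 0 at least 2-fold higher, against 1.76%. The lower and higher counts are not like for like. The control floor was the higher one, so a bound reaches a given fold from a lower signal in the control than in Bx discs. Over all named probe sets, 5.59% of those above the control floor were under the Bx floor, and 8.84% of those above the Bx floor were under the control floor. These counts rest on single arrays and on 10 genes, and no direction is called for the genes as a group.

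The 3 genes nearest to IRF4 in log2 signal over both arrays were PRKCI (247 and 269), C4orf33 (247 and 269) and DHRS11 (241 and 269), at distances of 0.01 to 0.02 log2 units. With 2 arrays, this measure says only that their signals were alike.

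Other genes of the B cell lineage were described from 5 lists of 74 symbols, of which 54 were on the array, each gene read on its brightest probe set. Of the 54, 39 (72.2%) were over both floors and 8 under both. Over all named genes 78.2% were over both floors. On the same count 6 of the 10 member genes were over both. The median log2 ratio of the 39 was 0.08, against 0.01 over all genes, with 26 higher and 13 lower in Bx discs. Over all 10168 genes 5328 were higher and 4840 lower. The split rests on the brightest probe set of each gene: PLCG2, a phospholipase counted as higher, averaged -0.11 (log2) across its 6 probe sets; it is named after its values were seen. Past 1.5-fold were 4 higher and 1 lower, against 4.11% and 3.63% of all genes over both floors.

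CD79A, the partner of CD79B, was not analysed here. The list of B cell receptor signalling had 8 of 13 genes over both floors, with a median log2 ratio of 0.27. DAPP1, an adaptor that binds phosphoinositides downstream of the receptor, was the one gene of the 5 lists past 2-fold. It had 434 in control discs and 949 after bursectomy (2.19-fold higher, 1 probe set), where 0.639% of all genes over both floors were higher and 0.423% lower by 2-fold or more. The bright members of this list are made by many cell types. CD81, a tetraspanin, had 10620 in control discs and 9931 after bursectomy. BCL10, a scaffold of NF-kappa-B signalling, had 1714 in control discs and 1771 after bursectomy. Of the kinases that start the receptor signal, SYK and BLK were under both floors, while LYN had 554 in control discs and 584 after bursectomy on 1 of its 3 probe sets. The phosphatases PTPN6 and INPP5D, which restrain the signal, were under both floors. These 5 genes are named after their values were seen.

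Transcription factors of the B lineage had 10 of 14 genes over both floors and a median log2 ratio of -0.14. XBP1, which drives the secretory programme of plasma cells and of other secretory cells, had 8225 in control discs and 7898 after bursectomy. ETS1 had 2912 in control discs and 2494 after bursectomy. MEF2C had 71.8 in control discs and 42.6 after bursectomy (1.69-fold lower, on 1 of its 3 probe sets). The factors EBF1, IKZF1, SPI1 and PRDM1 were not over both floors, and they too are named after their values were seen. EBF1, which acts with PAX5 in B cell commitment, had 22.4 in control discs and 43.0 after bursectomy. It was above the floor in Bx discs alone, by a bound of 1.01-fold. Its other probe set had 35.4 and 9.78, under both floors.

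The list of survival, homing and co-stimulation genes had 6 of 9 over both floors, all 6 with the higher signal in Bx discs on the brightest probe set, and a median log2 ratio of 0.18. CR2, a complement receptor, counts as higher by a log2 ratio of 0.06, but another of its probe sets went from 71.8 to 38.1, and the mean over its 3 probe sets was -0.25. It was singled out after its values were seen. CXCR4, a chemokine receptor of many cell types, had 294 in control discs and 397 after bursectomy. CD83 had 118 in control discs and 133 after bursectomy. NFKB2, an NF-kappa-B subunit, had 54.1 in control discs and 83.2 after bursectomy (1.54-fold higher), close to the floor.

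Immunoglobulin gene diversification had 7 of 10 over both floors and a median log2 ratio of 0.08. The genes over both floors repair DNA in many cell types. UNG, a uracil glycosylase, had 6453 in control discs and 6815 after bursectomy, and XRCC2, a DNA repair gene, had 1179 and 1199. POLH, a translesion polymerase, had 148 in control discs and 240 after bursectomy (1.62-fold higher), on 1 of 4 probe sets.

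Plasma cell secretion had all 8 of its genes on the array over both floors, and a median log2 ratio of -0.04. ELL2 had 7524 in control discs and 7992 after bursectomy, and TXNDC5, a disulfide isomerase, had 6864 and 7650. CD38, a surface enzyme that splits NAD, had 138 in control discs and 211 after bursectomy (1.53-fold higher, 1 probe set). Most genes of this list act in the secretory pathway of other cells too, and the source of their signal was not tested.

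**Figure D4:**
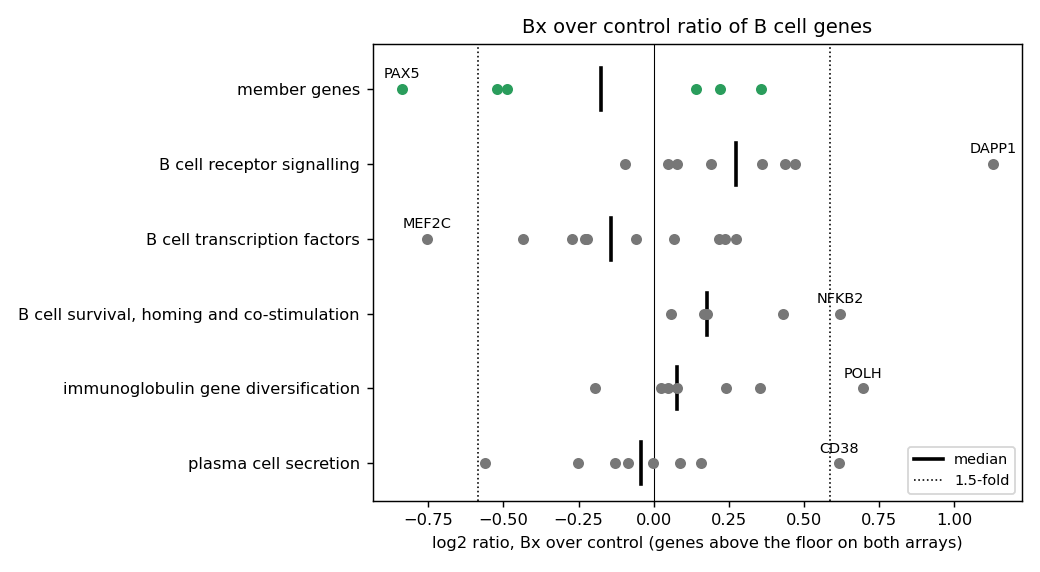
Log2 ratio of Bx over control for each gene over both floors, for the member genes (green) and 5 lists of B cell genes (grey), with each list's median as a black bar and 1.5-fold as dotted lines. PAX5 and MEF2C lie past 1.5-fold on the lower side, and DAPP1, NFKB2, POLH and CD38 on the higher side.

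The samples are titled as oocyte. The tissue label was checked with markers of the other cell types a germinal disc sample could hold. Granulosa cell markers were over both floors for 13 of 13 genes, with ZP3 at 36001 in control discs and 35348 after bursectomy and FOXL2 at 20540 and 19164. Oocyte markers were over both for 9 of 9, with DAZL at 2743 and 3027 and ZP2 at 2089 and 1952. Over all named genes the share over both floors was 78.2%. The granulosa list had a median signal of 6526 in control discs and 4496 in Bx discs, and the oocyte list 255 and 161. Each pair of medians is the pair of signals of a single gene, NR5A2 for granulosa and TDRD1 for oocyte. In Bx discs 7 of the oocyte genes were higher and 2 lower, and 1 of the granulosa genes was higher and 12 lower. Some genes of the oocyte list were close to the floor, among them DDX4 (43.6 and 70.6) and GDF9 (59.0 and 81.4). The list also counts ZP1 (44.8 and 68.2), and whether ZP1 marks the oocyte in the hen was not tested. These are named after their values were seen. The median log2 ratio was -0.27 for the granulosa list and 0.15 for the oocyte list, 0.34 for endothelium and -0.33 for theca and stroma, beside -0.17 for the member genes. Endothelial markers were over both for 9 of 11 (81.8%), with EGFL7 at 2844 and 2876 and CLDN5 at 1768 and 1855. The median signal of the endothelial list was 81.7 in control discs and 108 in Bx discs, so EGFL7 and CLDN5 stood far above the other markers. Theca and stroma markers were over both for 5 of 10, with COL1A2 at 1340 and 1364 and COL3A1 at 211 and 168. The median signal of that list was 65.8 in control discs and 41.1 in Bx discs. COL1A2 had 3 of its 8 probe sets over both floors, and COL1A1 and LUM were under both. ACTA2, smooth muscle actin, had 72.9 in the control and 7.02, under the floor, in Bx discs, a bound just past 2-fold. The list did not move 1 way. Of its 5 genes over both floors, 2 were higher and 3 lower in Bx discs. CYP17A1 had 58.7 and 110 (1.87-fold higher) and PDGFRA 86.6 and 44.6 (1.94-fold lower), both named after their values were seen. A further 2 were over the control floor alone and 1 over the Bx floor alone.

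Most leukocyte markers were under or near the floor, and most member genes were near it. T cell markers were over both floors for 6 of 14 genes, with CD2 at 103 in control discs and 129 after bursectomy and GATA3 at 139 and 87.2. Macrophage markers were over both for 4 of 11, with CSF1R at 65.1 and 67.8 and C1QC at 46.3 and 77.2. Of these 4, 3 were higher and 1 lower in Bx discs. The lower one was TLR4, at 71.8 and 37.4 (1.92-fold lower), named after its values were seen. A further 2 macrophage markers were over the control floor alone and 2 over the Bx floor alone. Pan-leukocyte markers were over both for 3 of 9, with ARHGDIB at 1131 and 1316 and LAPTM5 at 244 and 294. The median log2 ratio over genes past both floors was 0.18 for T cell, 0.16 for macrophage and 0.22 for pan-leukocyte markers, and 0.11 for both erythrocyte and thrombocyte markers. PTPRC (CD45), the antigen that defines leukocytes, was under both floors, at 8.62 and 25.7. Over the T cell, macrophage and pan-leukocyte lists, 13 of 34 genes (38.2%) were over both floors and 14 under both. Over all named genes 78.2% were over both. Erythrocyte markers were over both for 5 of 6, with CA2 at 217 and 234 and the globin HBAD at 133 and 144. Thrombocyte markers were over both for 5 of 6, with ITGB3 at 207 and 183 and TUBB1 at 96.3 and 136. The summed signal of the T cell list was 642 in control discs and 644 after bursectomy, that of the macrophage list 460 and 463, and that of the pan-leukocyte list 1578 and 1780. The sums include signals under the floors, and ARHGDIB made up most of the pan-leukocyte sum. The part of blood or other leukocytes in the members' signals was not tested.

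**Figure D5:**
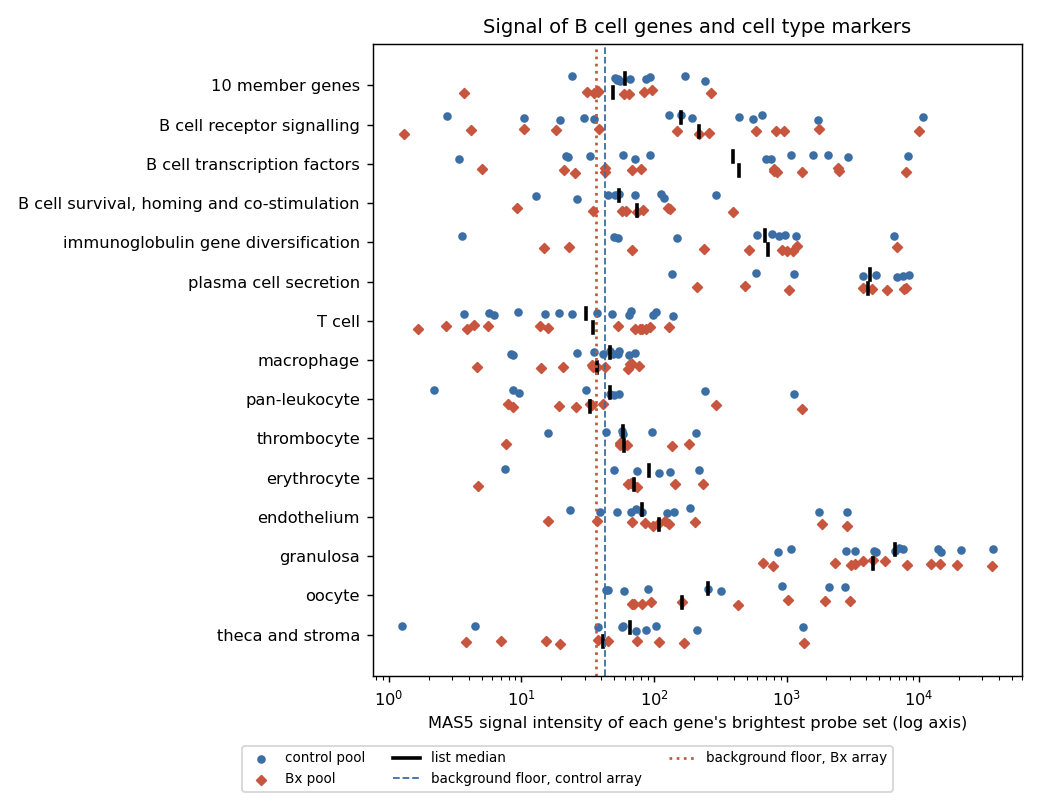
MAS5 signal (log axis) of the brightest probe set of each gene, by list, in control discs (blue circles) and Bx discs (red diamonds), with list medians as black bars and the array floors as vertical lines. The member genes and the T cell, macrophage and pan-leukocyte lists gather around the floors, while the granulosa list lies far to the right of them.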

How the data were processed

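The deposited table gives each probe set 1 intensity per array on a linear scale, made by the authors with MAS5, per the submitters' processing notes; version and scaling target: not given in the sources used here. RNA (100 ng) was labelled by 3' in vitro transcription, per the labels' protocols. The deposited intensity values had a mean, without the lowest and highest 2%, of 500.1 on both arrays, so differences in total mRNA do not show. Detection calls were not used here.

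Signals were taken to log2 with no pseudocount (Python 3.11.15, numpy 2.4.6, pandas 2.3.3). Gene names are those of the platform's GEO annotation, an old one; of 37693 chicken probe sets 27166 had 1 symbol, 177 several and 10350 none. All 24 member probe sets kept their symbol in the RefSeq table of assembly GRCg7b, whose coordinates were not used. A probe set over both floors has a ratio. Over 1 floor, it has a bound against the other floor, and under it on both, no fold. Folds of 1.5 and 2 were counted. With 1 array per group the number of arrays limits the precision and no p-value was computed. The calculation of ratios was tested on simulated data. Differences were planted only in genes over both floors, and the noise of the dimmest probe sets was reduced. Bounds against a floor were not tested in this way.

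Named genes were every member probe set, the 2 brightest genes of each list, genes of B cell lists past 1.5-fold (past 2-fold as a bound), markers past 2-fold, and the 3 genes nearest to the member with the highest signal. Members and lists were chosen with earlier results of these data known. The 14 lists held 184 symbols, 143 on the array. Alternatives were other floors, median centring, quantile normalization, loess (fraction 0.3), a pseudocount of 16, no floor, averaging a gene's probe sets, dropping those ending in _x_at or _s_at, and thresholds of 1.5-fold and 3-fold.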

Additional observations from a re-analysis of the deposited data

How the results depend on the processing

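The level of the floor decided how many of the 24 member probe sets counted as measured. With the 99th percentile of the non-chicken probe sets as floor, 4 were above it on the control array, 3 on the Bx array and 2 on both (IRF4 and PAX5), and TNFRSF13B, under that floor in Bx discs, was lower by a log2 bound of -0.26, so that 0 were at least 2-fold lower. With the 90th percentile 13 were above the floor on the Bx array. Without _x_at and _s_at probe sets, 4 of the rest were above it on the control array, 5 on the Bx array, 3 on both and 8 on neither. The rest were 11 with no suffix letter and 3 ending in _a_at. CD79B, BTK and POU2AF1 then had no probe set left. The CD72 ratio also rests on a _s_at probe set, and the IGLL1 ratio on a _x_at probe set. A changed floor acts on every probe set of an array. The shares of all named probe sets above the floor were not computed under these settings. With no floor 4 of the 24 member probe sets were at least 2-fold lower and 4 at least 2-fold higher. The share of all named probe sets past 2-fold with no floor was not computed, so nothing is read from these counts. With a pseudocount of 16 the count of member probe sets lower was 0. The median log2 ratio of the members was -0.35 with the 99th percentile, 0.04 with no floor, where all 24 probe sets enter, and between -0.20 and -0.11 under the scalings and the pseudocount. With 1 floor averaged over both arrays, IGLL1 probe set 2 was under it in Bx discs and JCHAIN under it on both arrays. The 6 single ratios kept their signs wherever they had a value, with PAX5 between -0.88 and -0.74. Of the 10168 genes over both floors, 65 were higher and 43 lower by 2-fold or more. These counts were 29 and 16 with the 99th percentile and 37 and 19 with the pseudocount. With no floor, where all 13008 genes enter, they were 769 and 740. With the main floors they were 418 and 369 at 1.5-fold and 7 and 6 at 3-fold. The medians of the 5 B cell lists kept their signs under every setting run, but not their sizes: receptor signalling ran from 0.18 to 0.27, transcription factors from -0.17 to -0.07, survival from 0.15 to 0.30, diversification from 0.05 to 0.13 and secretion from -0.09 to -0.02. Scaling put the median of all genes between -0.01 and 0.01. No paired analysis was possible because each group has 1 array. Of the 11 member probe sets over either floor, 9 had signals under 100 on both arrays, and closeness to background limits what their values show.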

Other observations

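The genes in this paragraph were chosen after their values were seen. The recombinase genes RAG1 and RAG2, which rearrange immunoglobulin and T cell receptor genes, were above the floor in control discs alone. RAG1 had 53.2 in control discs and 14.8 after bursectomy, at least 1.46-fold lower, and RAG2 had 22.9 after bursectomy, at least 1.37-fold lower. Each rests on 1 of 2 probe sets of opposite orientation. The other RAG1 probe set had 4.80 and 18.6 and the other RAG2 probe set 34.5 and 12.4, under both floors. DNTT, the terminal transferase that adds bases at the joins, was the other way round, with 3.56 in control discs and 68.5 after bursectomy, at least 1.61-fold higher. TNFSF13B, which encodes the B cell survival factor BAFF, a ligand of TNFRSF13B, had 12.9 in control discs and 61.9 after bursectomy, at least 1.45-fold higher, on 1 of 3 probe sets. CXCR5, the receptor that brings B cells into follicles of lymphoid tissue, had 26.1 and 9.34, under both floors. CD3E, a chain of the T cell receptor complex, was above the floor in Bx discs alone, at 72.0 against 6.25. All of these signals were under 100 on both arrays. Of all named probe sets with a control signal between the floor and 100, 22.2% were under the floor in Bx discs. In the mirrored range on the Bx array 32.8% were under the control floor. No direction is called for these genes.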
